A study of Mus musculus with 12 samples.

Results

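The 5 genes described here, Lrrc8a, Lrrc8b, Lrrc8c, Lrrc8d and Lrrc8e, encode the subunits of the volume-regulated anion channel. They were matched by symbol to their Ensembl identifiers among the 32783 genes listed in the deposited count tables of astrocyte-enriched and microglia-enriched cells of the mouse hippocampus. The family was chosen by the measured fold change of Lrrc8b in the astrocyte-enriched cells of AAV-A2A animals, where it fell strongly, so that values of the 5 genes in that comparison are a description with no test. All 5 were listed in the microglia table (30359 genes) and 4 in the astrocyte table (27866 genes), which did not list Lrrc8e. The astrocyte table listed no gene with 0 reads in all of its libraries. Lrrc8e was taken as 0 there in the shares given below.

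The channel opens when a cell swells and lets chloride and small organic molecules, such as taurine and glutamate, leave it. LRRC8A is the subunit that every functional channel needs, and it assembles with LRRC8B, LRRC8C, LRRC8D or LRRC8E, whose choice sets what the pore passes. In astrocytes the channel is known for the release of excitatory amino acids during swelling, and in microglia swelling-activated chloride currents have been recorded.

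All animals were male C57Bl6/J mice that received an AAV2/9 vector bilaterally in the hippocampal CA1 area at 2 months of age and were sampled at 4 months, 2 months after the injection. Controls (AAV-GFP, AAV2/9-GfaABC1D-Bglob-GFP-WPRE) thus carried a vector too, and AAV-A2A animals (AAV2/9_GfaABC1D-Bglob-A2AR-WPRE) received the murine adenosine A2A receptor. GfaABC1D is an astrocyte-selective promoter. Left and right hippocampi were dissected whole, cells binding ACSA-2 beads (an astrocyte surface antigen) were sorted first, and cells binding CD11b beads (a microglial surface protein) were then sorted from the unbound cells, giving 3 libraries per vector in each fraction.

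Libraries held between 33937067 and 53206974 reads on genes. Adora2a, the gene carried by the vector, was at 24.2 ± 1.11 CPM (read counts scaled by library size and TMM factor, SD, n = 3) in ACSA-2 controls and at 785 ± 147 CPM in ACSA-2 AAV-A2A libraries, vector and endogenous transcripts being counted together. In the CD11b libraries it was at 3.96 to 8.06 CPM in controls and at 16.2 to 43.2 CPM in AAV-A2A animals. The 10 astrocyte markers summed to between 24106 and 38693 CPM in ACSA-2 libraries and to between 282 and 559 CPM in CD11b libraries, and the 10 microglia markers to between 297 and 543 CPM and between 7883 and 58828 CPM respectively. The CD11b libraries were uneven. The 6 choroid plexus markers summed to 76924, 62315 and 31944 CPM in GFP-2328, GFP-2329 and A2A-2347, and to 95.4, 70.8 and 9.27 CPM in GFP-2331, A2A-2343 and A2A-2344. The log2 fold changes that rest on CD11b libraries are therefore given with and without the first 3 of these, or by how many kept their sign. Levels and shares are given with all libraries. That alternative was chosen after seeing the data. The labels number the libraries of the 2 fractions differently and do not say whether they share animals, and the p-values measure the spread between these libraries.

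On GRCm38, Lrrc8a (ENSMUSG00000007476) lies on chromosome 2 at 30237715-30263790 and Lrrc8e (ENSMUSG00000046589) on chromosome 8 at 4226827-4237470. Lrrc8b (ENSMUSG00000070639, 105415775-105490074), Lrrc8c (ENSMUSG00000054720, 105519388-105613018) and Lrrc8d (ENSMUSG00000046079, 105699969-105832436) follow each other in a row on chromosome 5, all on the + strand, with gaps of 29.3 and 87.0 kb. Exons of Gm28035, a protein-coding gene on the same strand, cover 66.2% of the exon bases of Lrrc8a. Reads in these bases were left out as ambiguous by the counting of the authors, so that the count of Lrrc8a rests on the remaining bases and understates its level. Exons of another gene covered 1.73% of those of Lrrc8d on either strand and none of those of Lrrc8b, Lrrc8c and Lrrc8e.

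The promoters of Lrrc8b and Lrrc8c, both lower in ACSA-2 cells of AAV-A2A animals, are shown beside that of Lrrc8a, which was not. The receptor added by the vector couples to the production of cyclic AMP, whose response element is one of the motifs searched. The sequences come from RefSeq (GRCm38.p6, + strand) and stop before the first annotated base of the gene. They span chr5:105415525-105415774 for Lrrc8b, chr5:105519221-105519387 for Lrrc8c and chr2:30237519-30237714 for Lrrc8a, and capitals mark the motif matches given in the next paragraph.
Lrrc8b: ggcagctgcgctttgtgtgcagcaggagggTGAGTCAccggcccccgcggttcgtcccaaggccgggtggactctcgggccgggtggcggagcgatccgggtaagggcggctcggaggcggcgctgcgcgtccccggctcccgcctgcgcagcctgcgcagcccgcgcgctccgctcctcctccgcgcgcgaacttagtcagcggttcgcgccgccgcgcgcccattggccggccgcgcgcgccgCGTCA
Lrrc8c: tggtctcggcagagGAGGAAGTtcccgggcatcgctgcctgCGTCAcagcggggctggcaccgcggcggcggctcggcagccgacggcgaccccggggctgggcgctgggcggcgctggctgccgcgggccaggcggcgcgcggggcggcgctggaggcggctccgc
Lrrc8a: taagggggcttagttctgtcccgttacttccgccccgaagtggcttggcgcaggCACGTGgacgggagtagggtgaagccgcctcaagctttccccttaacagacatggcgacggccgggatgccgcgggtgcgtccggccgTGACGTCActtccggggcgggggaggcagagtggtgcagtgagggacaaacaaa

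The 6 motifs were searched on both strands in windows from 250 bases before to 50 bases after each start, and were chosen after the letters had been seen. Lrrc8a held the whole cyclic AMP response element TGACGTCA, present in 1.79% of the 32851 mouse promoter windows of that length, and the E-box CACGTG (7.15%). Lrrc8b held the AP-1 site TGAGTCA (5.2%), and Lrrc8c the PU.1 site GAGGAAGT (3.2%). The half-site TGACG, read as CGTCA on the other strand and contained in the whole element, was found in Lrrc8a, Lrrc8b and Lrrc8c and in 20.8% of all windows. None of these was found in the windows of Lrrc8d and Lrrc8e. The TEAD site GGAATG (14.7%) was found in no window of the family. The windows of Lrrc8b and Lrrc8c had 78.0% of G and C each, against a median of 52.7% over all windows. The other members lay above that median too, with 70.0% for Lrrc8a, 71.3 and 70.3% for Lrrc8d and 60.0% for Lrrc8e. A match describes the letters and no site of binding. As the motifs were chosen after the letters had been seen, the shares do not measure how unusual a match is.

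The next comparison asked how the A2A receptor in astrocytes changed the family in ACSA-2 cells. Lrrc8b was 6.43-fold lower there and Lrrc8c 2.35-fold lower, whereas Lrrc8a was at the same mean level and Lrrc8d overlapped between the groups. Lrrc8a, the subunit that all channels need, was at 7.75, 10.9 and 7.41 CPM in controls (GFP-303, GFP-306, GFP-307) and at 10.7, 7.23 and 8.08 CPM in AAV-A2A animals (A2A-309, A2A-310, A2A-313). The groups overlapped in full, with a log2 fold change (FC) of 0.00 (SE 0.35, from the edgeR fit).

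Lrrc8b, whose protein has been linked to calcium leak from the endoplasmic reticulum, was at 76.8, 69.3 and 73.1 CPM in controls and at 14.2, 10.1 and 9.82 CPM in AAV-A2A animals, in the same order of libraries. Every AAV-A2A library lay far below every control, with a log2 FC of -2.69 (SE 0.23). The counts behind these values were 2338 to 3071 reads in controls and 426 to 512 in AAV-A2A animals.

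Lrrc8c, a subunit whose channels are known to pass the signalling molecule cGAMP, was at 53.1, 82.2 and 69.6 CPM in controls and at 27.8, 32.9 and 26.6 CPM in AAV-A2A animals. These groups did not overlap either, and the log2 FC was -1.23 (SE 0.23). Lrrc8d, which widens the pore for taurine and uncharged osmolytes, was at 7.65, 18.0 and 18.1 CPM in controls and at 9.92, 8.51 and 10.6 CPM in AAV-A2A animals. GFP-303 lay below all 3 AAV-A2A libraries and the other controls above them, with a log2 FC of -0.60 (SE 0.38).

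Calls here and in what follows are those of edgeR's quasi-likelihood test (Benjamini-Hochberg adjusted p under 0.05 and absolute log2 FC over 0.32). In this comparison, by which the family was chosen, 2 of the 4 genes (Lrrc8b and Lrrc8c) were past both thresholds and 2 of the 4 did not overlap, while the shares over all 16451 genes tested were 3.36% and 19.6%. Nothing is read from these counts, which the choice of the family fixed in part. Leaving out 1 library at a time, the log2 FC of Lrrc8b went from -2.88 to -2.60 and that of Lrrc8c from -1.40 to -1.08. Lrrc8c was not past the thresholds without GFP-306 (-1.08), GFP-307 (-1.22), A2A-309 (-1.20) or A2A-313 (-1.17), nor in 1 fit of all 12 libraries (-1.26).

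The summed level of 12 of the 13 lists of markers of cell types overlapped between the ACSA-2 groups, and 1 was lower in AAV-A2A animals, that of oligodendrocyte precursors. Its 4 genes summed to 191 to 299 CPM in controls and to 56.6 to 85.0 CPM in AAV-A2A libraries. Cspg4, which pericytes also express, made up most of it (186 to 290 CPM against 45.7 to 70.4 CPM). Pdgfra was at 4.07 to 7.44 and at 4.32 to 4.54 CPM, C1ql1 at 1.52 to 3.64 and at 1.54 to 9.69 CPM, and Gpr17 at 0 in each control and at most 0.53 CPM in the others. Single markers of 2 other lists were called lower as well. The endothelial marker Flt1 was at 157 to 195 CPM in controls and at 46.9 to 77.5 CPM in AAV-A2A animals (log2 FC -1.66, edgeR adjusted p = 0.00523), 1 of 9 genes of its list, whose sums were 511 to 572 CPM and 293 to 575 CPM and whose median log2 FC was -0.81. The microglia marker Sall1 was at 53.8 to 72.2 CPM and at 8.43 to 30.3 CPM (log2 FC -1.74, edgeR adjusted p = 0.0493), 1 of 10 genes of its list, whose median log2 FC was -0.09. The part of any of these cells in the fall of Lrrc8b and Lrrc8c was not tested. In sorted bulk cells, fewer cells of a type and less RNA per cell cannot be told apart.

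**Figure D1:**
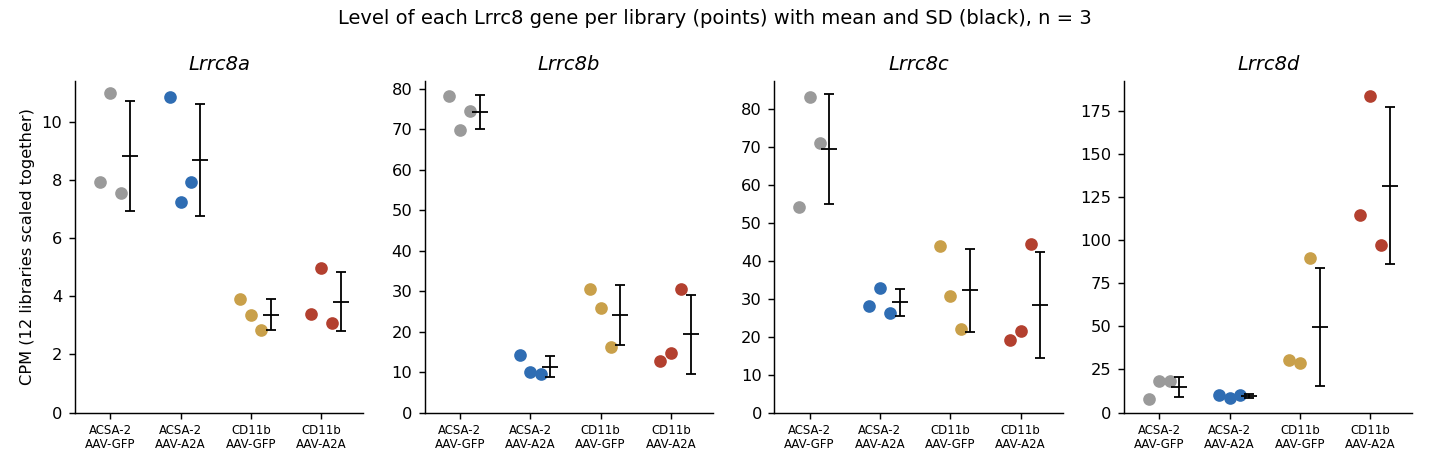
Level of Lrrc8a, Lrrc8b, Lrrc8c and Lrrc8d in each of the 12 libraries, in CPM scaled over all 12 libraries together (y axis, from 0), by cell fraction and vector (x axis). Points are libraries and black marks the mean and SD (n = 3). The 3 ACSA-2 control libraries stand above all others for Lrrc8b and Lrrc8c, and the 3 CD11b AAV-A2A libraries for Lrrc8d.

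The same vector comparison in CD11b cells, which the choice of the family did not use, gave no gene past the thresholds. With edgeR, 0 of the 4 tested members and 0 of 16949 genes were called (0.0%), while 1 of the 4 members, Lrrc8d, and 16.0% of all genes had an unadjusted p under 0.05. DESeq2 called 455 genes (2.46%) and limma-voom 0, neither including a member. Lrrc8d was at 32.2, 29.4 and 86.7 CPM in GFP-2328, GFP-2329 and GFP-2331 and at 109, 175 and 105 CPM in A2A-2343, A2A-2344 and A2A-2347. Each AAV-A2A library was above each control, as for 1 of the 4 members and 23.4% of all tested genes in either direction. The log2 FC was 1.39 (SE 0.50, edgeR adjusted p = 0.288).

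Both control libraries with the lowest Lrrc8d had high choroid plexus markers and the lowest sums of microglia markers (7883 and 15825 CPM, against 22960 to 58828 CPM in the other 4). A2A-2347, also rich in choroid plexus markers, had Lrrc8d at 105 CPM, above GFP-2331, poor in them, at 86.7 CPM. Without the 3 libraries rich in choroid plexus markers, 1 control and 2 AAV-A2A libraries remained. The log2 FC of Lrrc8d was then 0.72 (SE 0.67), the lone control being assumed to vary like the others. Without GFP-2331 it was 2.08. Neuron, ependymal and erythrocyte markers, 3 of the 13 lists, were lower in all CD11b AAV-A2A libraries than in all controls. For erythrocytes, the most abundant of them, the sums were 987 to 6132 CPM and 61.5 to 242 CPM. Their part in the value of Lrrc8d was not tested.

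Lrrc8b was at 32.1, 26.5 and 15.7 CPM in CD11b controls and at 12.2, 14.1 and 33.1 CPM in CD11b AAV-A2A animals, and Lrrc8c at 46.2, 31.4 and 21.5 CPM and at 18.2, 20.6 and 48.1 CPM. Both were highest in GFP-2328, GFP-2329 and A2A-2347, the 3 libraries rich in choroid plexus markers, and the groups overlapped. The log2 FC was -0.32 (SE 0.50, edgeR adjusted p = 0.773) for Lrrc8b and -0.19 (SE 0.49, adjusted p = 0.869) for Lrrc8c, and -0.25 (SE 0.80) and -0.15 (SE 0.77) without these 3 libraries. The part of choroid plexus cells in these levels was not tested. Lrrc8a was at 2.76 to 4.12 CPM in controls and at 3.24 to 4.75 CPM in AAV-A2A animals (log2 FC 0.14, SE 0.46, edgeR adjusted p = 0.90), with a log2 FC of 0.54 (SE 1.03) without these 3 libraries.

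Lrrc8e had 14 and 11 reads in GFP-2328 and GFP-2329 and 0 in the other 4 CD11b libraries, and was not tested. Both libraries with reads were rich in choroid plexus markers, whereas A2A-2347, also rich in them, had none. A count of 0 allows up to 3 reads, or 0.0552 to 0.0848 CPM in these 4 libraries, against 0.276 and 0.258 CPM in the libraries with reads. Such floors cover counting error only.

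**Figure D2:**
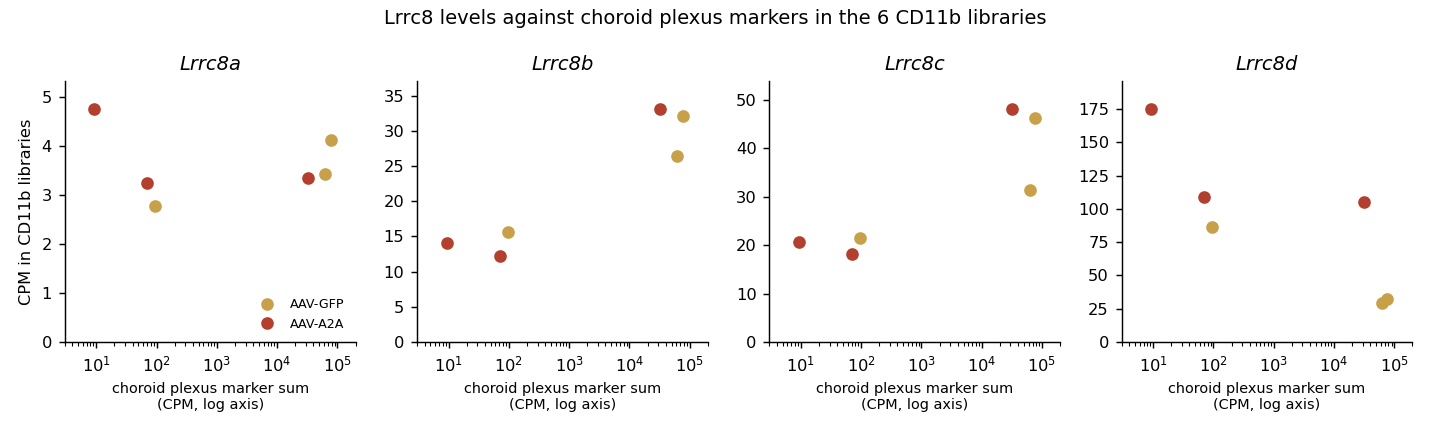
Level of 4 Lrrc8 genes in the 6 CD11b libraries (y axis, CPM within the fraction, from 0) against the summed level of 6 choroid plexus markers (x axis, CPM, log axis), by vector. The 3 libraries on the right are the highest for Lrrc8b and Lrrc8c, and both control libraries there are the lowest for Lrrc8d. The AAV-A2A library on the right lies above the control on the left for Lrrc8d.

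To see whether the effect of the vector differed between the fractions, all 12 libraries were fitted together (18602 genes). The vector effect in ACSA-2 cells less that in CD11b cells was -2.39 (SE 0.52, log2) for Lrrc8b, -2.03 (SE 0.67) for Lrrc8d, -1.07 (SE 0.51) for Lrrc8c and -0.20 (SE 0.56) for Lrrc8a. With edgeR 0 of the 4 members were called, against 0.403% of all genes, and 2 of 4 had an unadjusted p under 0.05, against 19.6%. limma-voom called none of them and DESeq2 called 1, Lrrc8b, against 9.02% of all genes. Lrrc8b was called by edgeR without GFP-2331 (-2.18) or A2A-2343 (-2.63), and Lrrc8d without GFP-2331 (-2.77). Without the 3 libraries rich in choroid plexus markers, which leaves 1 CD11b control, the differences were -2.49, -1.37, -1.14 and -0.58 in the same order. The ACSA-2 effect within this difference was used to pick the family, and nothing is read from these counts.

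The levels of the family in ACSA-2 and CD11b cells were then set side by side within each vector, in the same fit. In controls Lrrc8a, Lrrc8b and Lrrc8c were higher in ACSA-2 cells and Lrrc8d was higher in CD11b cells. All 4 were called by edgeR, where 26.7% of the 18602 genes were, and none of the 4 overlapped between the fractions, as for 48.1% of all genes. The counts of the fractions come as separate tables, and whatever else differed between these cannot be told apart from the fraction. The ACSA-2 controls also enter the comparison by which Lrrc8b was picked, and the Lrrc8b values are a description.

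Lrrc8a was at 7.55 to 10.99 CPM (scaled over 12 libraries) in ACSA-2 controls and at 2.84 to 3.92 CPM in CD11b controls (log2 FC 1.39, SE 0.41, edgeR adjusted p = 0.0264). Lrrc8c was at 54.2 to 83.1 CPM and at 22.2 to 43.9 CPM (log2 FC 1.11, SE 0.36, edgeR adjusted p = 0.0431). Lrrc8b was at 70.0 to 78.4 CPM and at 16.2 to 30.6 CPM (log2 FC 1.62, SE 0.37). In each of these 3 genes the lowest ACSA-2 control exceeded the highest CD11b control. Lrrc8d went the other way, with 7.81 to 18.4 CPM in ACSA-2 controls and 28.7 to 89.3 CPM in CD11b controls (log2 FC -1.74, SE 0.48, edgeR adjusted p = 0.0206). The count of Lrrc8a leaves out the bases it shares with Gm28035. That gene had 62 reads in all ACSA-2 libraries together and 1688 in all CD11b libraries together. The left-out reads may thus differ between the fractions, with either vector, and their part in the difference of Lrrc8a was not tested.

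These calls rested on few libraries. The call of Lrrc8a was lost without GFP-306 (log2 FC 1.20), GFP-307 (1.39), GFP-2328 (1.51), GFP-2329 (1.38) or GFP-2331 (1.28). That of Lrrc8c was lost without GFP-303 (1.25), GFP-306 (0.96), GFP-307 (0.98), GFP-2329 (1.07) or GFP-2331 (0.89), and that of Lrrc8d without GFP-303 (-1.43) or GFP-2331 (-1.01). Without the 3 libraries rich in choroid plexus markers, the log2 FC was 2.18 for Lrrc8b, 1.62 (SE 0.40) for Lrrc8c, -2.61 (SE 0.44) for Lrrc8d and 1.61 (SE 0.66) for Lrrc8a. Of the CD11b controls only GFP-2331 then remained, which the fit assumes to vary like the libraries of the other groups, so that no p is given for these values.

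In AAV-A2A animals Lrrc8d was again higher in CD11b cells and Lrrc8a in ACSA-2 cells, and Lrrc8b and Lrrc8c were not called. Lrrc8d was at 8.51 to 10.4 CPM in ACSA-2 and at 97.1 to 183 CPM in CD11b libraries (log2 FC -3.77, SE 0.52, edgeR adjusted p = 0.000204). It was called without any 1 of the 6 libraries (-3.95 to -3.47), and was -3.98 without the 3 libraries rich in choroid plexus markers, where 2 CD11b AAV-A2A libraries remained. Lrrc8a was at 7.23 to 10.9 CPM and at 3.09 to 4.97 CPM (log2 FC 1.18, SE 0.40, edgeR adjusted p = 0.0314), and its call was lost without A2A-309 (0.99), A2A-313 (1.24), A2A-2343 (1.101) or A2A-2347 (1.05) and without the 3 libraries rich in choroid plexus markers (1.02). These 2 of 4 members compare with 46.0% of all genes called, and the same 2 did not overlap between the fractions, as for 58.2% of all genes. Lrrc8b (log2 FC -0.77, SE 0.36) and Lrrc8c (0.04, SE 0.36, edgeR adjusted p = 0.945) overlapped between the fractions, and Lrrc8b was called without A2A-2343 (-1.01). Without the 3 libraries rich in choroid plexus markers their log2 FC were -0.31 and 0.48. The ACSA-2 AAV-A2A libraries also enter the comparison by which Lrrc8b was picked. The Lrrc8b values here, and its part in the counts of members, are a description.

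**Figure D3:**
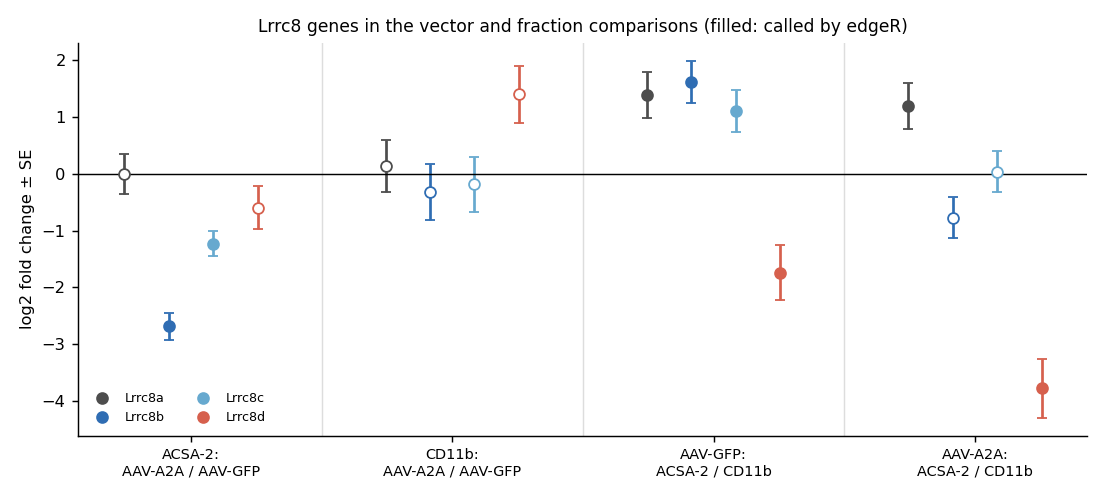
Log2 fold change and SE from edgeR (y axis) of 4 Lrrc8 genes for the vector in each fraction and for ACSA-2 against CD11b cells with each vector (x axis). Filled points were past both thresholds. For the vector in ACSA-2 cells, and for Lrrc8b between the fractions, this is a description only. Lrrc8b and Lrrc8c lie at -2.69 and -1.23 for the vector in ACSA-2 cells, and Lrrc8d lies at 1.39 for the vector in CD11b cells with an open point.

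Levels of different members were compared per kilobase of exon (CPM per kb). The length of all exons was used first. It understates Lrrc8a, since reads in 66.2% of its exon bases were left out of its count. In ACSA-2 controls the order was Lrrc8b (11.04 ± 0.62, SD, n = 3), Lrrc8c (9.06 ± 1.90), Lrrc8a (2.05 ± 0.44) and Lrrc8d (1.18 ± 0.48), where Lrrc8b and Lrrc8c overlapped. In ACSA-2 cells of AAV-A2A animals it was Lrrc8c (3.79 ± 0.46), Lrrc8a (2.01 ± 0.45), Lrrc8b (1.69 ± 0.39) and Lrrc8d (0.77 ± 0.08), where Lrrc8a and Lrrc8b overlapped. Lrrc8b thus passed from the first to the third place.

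In CD11b controls Lrrc8c (4.21 ± 1.43), Lrrc8d (3.94 ± 2.74) and Lrrc8b (3.59 ± 1.09) overlapped with each other and lay above Lrrc8a (0.78 ± 0.12). In CD11b cells of AAV-A2A animals Lrrc8d (10.5 ± 3.63) lay above Lrrc8c (3.70 ± 1.82) and Lrrc8b (2.88 ± 1.45), which overlapped, and Lrrc8a was last (0.89 ± 0.23). The sum of Lrrc8a to Lrrc8d was 23.3 ± 2.04 in ACSA-2 controls, 8.26 ± 0.81 in ACSA-2 AAV-A2A libraries, 12.5 ± 1.44 in CD11b controls and 17.9 ± 3.33 in CD11b AAV-A2A libraries. Lrrc8a is understated in these sums. Its mean was nearly the same in both ACSA-2 groups, so that the ratio between their sums is overstated.

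As a share of this per-length sum, Lrrc8b made up 55.0, 41.2 and 47.0% in the ACSA-2 controls and 23.4, 18.4 and 19.1% in the ACSA-2 AAV-A2A libraries, in the order used above. The groups did not overlap. The share of Lrrc8a, whose own log2 FC was 0.00 (SE 0.35), was 8.73 ± 1.33% in ACSA-2 controls and 24.2 ± 3.53% in AAV-A2A animals. The share of Lrrc8c was 38.6 ± 4.82% and 46.2 ± 6.28%. In CD11b libraries Lrrc8d held 17.8, 20.8 and 54.4% in controls and 63.7, 70.3 and 41.1% in AAV-A2A animals. Its 3 lowest shares were those of the libraries rich in choroid plexus markers.

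The place of Lrrc8a depended on the length used. The length of all exons includes bases whose reads were left out of its count. Per base of exons that no other gene covers on either strand, an alternative added after seeing the data, Lrrc8a was at 6.46 ± 1.38 CPM per kb in ACSA-2 controls, overlapping Lrrc8c, and at 6.36 ± 1.41 CPM per kb in ACSA-2 AAV-A2A libraries, above all other members. Its share was then 23.1 ± 2.97% and 50.05 ± 4.85%, and that of Lrrc8b 40.2 ± 6.26% and 13.3 ± 1.18%. In CD11b cells Lrrc8a then overlapped Lrrc8b with both vectors (2.47 ± 0.39 and 2.80 ± 0.74 CPM per kb).

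**Figure D4:**
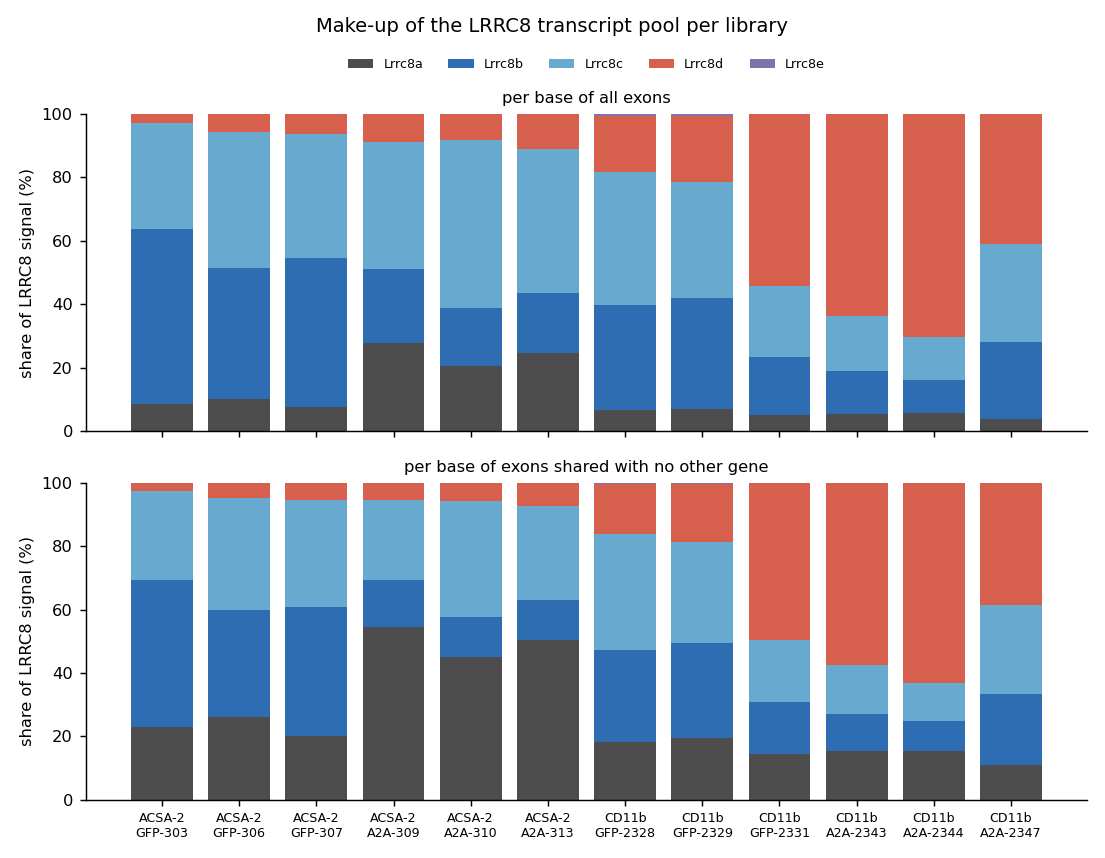
Share of each Lrrc8 gene in the per-length sum of the family (y axis, %) in each of the 12 libraries (x axis), per base of all exons (top) and per base of exons that no other gene covers (bottom). The Lrrc8b share falls from 41.2-55.0% to 18.4-23.4% between the ACSA-2 groups in the top panel, and the Lrrc8a share is larger in the bottom panel.

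Lrrc8b, Lrrc8c and Lrrc8d being neighbours, the genes within 500 kb of the row were examined. Of 28 other annotated genes, 8 were tested in ACSA-2 cells and 6 in CD11b cells. EdgeR called 0 of them for the vector in either fraction, against 3.36% and 0.0% of all genes tested. Among the 8, all but Zfp326 had group means of at most 2.28 CPM in ACSA-2 cells, with SE of 1.04 to 1.87. So few genes at such levels do not show whether the fall was confined to the row. Gm32051, a non-coding gene starting 6.4 kb before Lrrc8b, was at 0.88 ± 0.47 CPM (SD, n = 3) in ACSA-2 controls and 0.43 ± 0.71 CPM in AAV-A2A animals, too low for a fold change with a small error (log2 FC -1.04, SE 1.57). Zfp326, a zinc finger gene and the nearest tested gene after Lrrc8d, was at 12.2 ± 3.67 and 21.0 ± 1.71 CPM (log2 FC 0.79, SE 0.30, edgeR adjusted p = 0.287). The log2 FC within the row were -2.69, -1.23 and -0.60 from its first gene to its last.

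**Figure D5:**
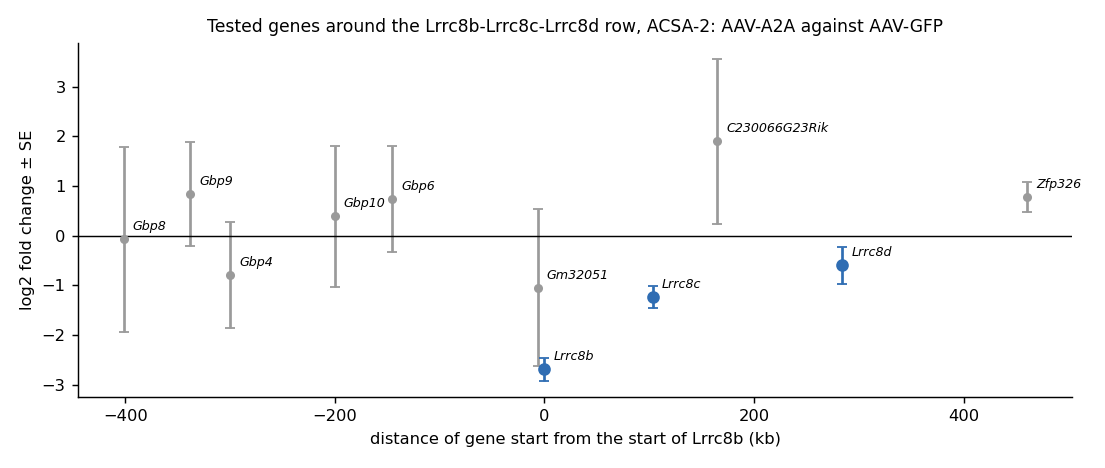
Log2 fold change and SE for the vector in ACSA-2 cells (y axis) of the genes tested around the row of Lrrc8b, Lrrc8c and Lrrc8d (blue) and of other genes (grey), by distance of their start from that of Lrrc8b (x axis, kb). Lrrc8b lies at -2.69, Lrrc8c at -1.23 and Lrrc8d at -0.60. None of the 8 other genes was called, against 3.36% of all genes tested.

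The genes whose pattern was most like that of Lrrc8b, by Pearson's r of log2 CPM over the 12 libraries among 11623 genes with a mean of at least 5 CPM, were Ralgapb (0.962), which encodes a subunit of the Ral GTPase-activating complex, Mapk6 (0.957), the ubiquitin ligase gene Wwp1 (0.949), Podxl (0.937) and the arginyltransferase gene Ate1 (0.936). Lrrc8c ranked 25 in that order (0.879). The most like Lrrc8a were the glycine transporter gene Slc6a9 (0.957), Sypl2 (0.955), Plpp4 (0.955) and the astrocyte genes Gfap (0.955) and Bcan (0.955). With a prior count of 10 in place of 2, the first 5 genes for Lrrc8b were the same, and 2 of the 5 for Lrrc8a, Slc6a9 and Plpp4, were kept. The libraries share their fraction and vector, so that these values are a description with no test.

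Other genes of cell volume and anion transport were counted by list. In the vector comparison of ACSA-2 cells edgeR called 2 genes of the 6 lists, both lower in AAV-A2A animals, against 3.19% of all genes called lower. For the number of list genes tested, given with each list, this is near the share of all genes. Nothing about the lists is read from it. Ttyh3, a tweety family gene and 1 of 18 tested genes of the other chloride and anion channels, was at 1503 to 1866 CPM in controls and at 309 to 514 CPM in AAV-A2A animals (log2 FC -2.06, SE 0.22, edgeR adjusted p = 0.00211). Wnk2, a chloride-sensitive kinase and 1 of 15 tested genes of the WNK kinases and cation chloride cotransporters, was at 157 to 165 CPM and at 38.4 to 54.0 CPM (log2 FC -1.74, SE 0.19, edgeR adjusted p = 0.00212). For both, the groups lay far apart.

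None of the 12 other large-pore channels (connexins, pannexins and CALHM channels), 11 genes of organic osmolytes, 8 of water, potassium and swelling sensors and 6 of the cGAMP pathway tested was called there. The medians of the 6 lists lay between -0.13 and 0.30 (log2), against 0.02 for all genes. With DESeq2, which called 6.85% of all genes, 5 genes of the other chloride and anion channels, 1 large-pore channel and 1 gene of the cGAMP pathway were called. In CD11b cells edgeR called 0 genes of the 6 lists for the vector, and DESeq2 called 2 chloride and anion channels and 1 gene of the WNK list.

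Between the fractions in controls, where 26.7% of all genes were called, 6 of 18 chloride and anion channels were. Ttyh1 (log2 FC 5.50), Ttyh3 (3.90), Clcn2 (2.35) and Ttyh2 (1.64) were higher in ACSA-2 cells, and the proton-activated channel gene Pacc1 (-2.90) and Clcn5 (-2.80) in CD11b cells. Of 13 large-pore channels, the connexin genes Gjb6 (6.69), Gja1 (6.38), Gjb2 (5.17), Gja4 (1.55) and Gjc1 (1.04) were higher in ACSA-2 and Calhm2 (-3.11) in CD11b cells.

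All 4 of the 6 cGAMP pathway genes that were called were higher in CD11b cells, from the sensor Cgas (-6.98) and Sting1 (-5.70) to the kinase Tbk1 (-1.75) and Irf3 (-0.71). Of 9 genes of water, potassium and swelling sensors, the astrocyte channels Kcnj10 (5.71), Aqp4 (5.14), Aqp9 (4.67) and Kcnj16 (4.59) were higher in ACSA-2 cells and Trpv4 (-5.80) and Piezo1 (-5.79) in CD11b cells. Trpv4 was at 402, 299 and 491 CPM in GFP-2328, GFP-2329 and A2A-2347 and at 22.4 to 23.4 CPM in the other 3 CD11b libraries, the same split as the choroid plexus markers, whose part was not tested.

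Of the 17 genes of the WNK list, Wnk2 (4.44) was higher in ACSA-2 cells and 6 were higher in CD11b cells, among them Slc12a2 (-2.54), the sodium, potassium and chloride importer, and Wnk1 (-2.10). The 7 calls of this list became 3 without GFP-303 and 4 without GFP-306, GFP-307 or GFP-2329. Of 11 osmolyte genes, Cdo1 (4.05), which makes a taurine precursor, was higher in ACSA-2 cells, and Slc38a2 (-2.02), the inositol synthase gene Isyna1 (-1.95) and the taurine transporter gene Slc6a6 (-0.999) in CD11b cells.

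Without the 3 libraries rich in choroid plexus markers, all 33 genes of the 6 lists called between the fractions in controls had the same sign. This leaves 1 CD11b control, so that no calls are given. Gja4 (0.79), Gjc1 (0.85), Oxsr1 (-0.999) and Slc12a7 (-1.50) lay closer to 0 than with all libraries. Trpv4 was at -2.51 and Slc12a2 at -1.46, each over 1.5 times closer to 0 than with all libraries.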

How the data were processed

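RNA of ACSA-2 and CD11b cells was amplified by PCR (SMART-Seq v4, 12 cycles, then 12 for Nextera XT libraries) and sequenced in single reads. The authors trimmed the reads with cutadapt 1.10, mapped them to mm10 with STAR 2.5.3 and deposited raw counts per Ensembl gene of uniquely aligned, unambiguous reads from HTSeq 0.6.1p1. The strand setting was not given in the sources used here, and duplicates are included. Total counts were 33937067 to 53206974 per library, and 25 unnamed columns were not used.

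Groups came from the labels. Each fraction was tested separately, and all 12 libraries together over the 25442 genes of both tables, with edgeR 4.0.16 in R 4.3.3 (TMM, filterByExpr, robust quasi-likelihood, SE from the F statistic). The study's DESeq2 test (1.42.0 here) and limma-voom 3.58.1 were alternatives, with other scaling and filters, a trend on gene length removed, and each library left out. The tests were tried on simulated counts. Positions and lengths are from GENCODE M21 and promoters from RefSeq. The members and lists were chosen with earlier results of these data known. Named genes were the members, Adora2a, up to 6 called genes of each list (the most abundant gene, also in the rule, is not given since its order depends on the length used), neighbours next to the row, and the 5 genes most like Lrrc8b or Lrrc8a. Trpv4 per library and the markers beside results were added after their values were seen.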

Additional observations from a re-analysis of the deposited data

Results flagged for a closer look

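Lrrc8d is singled out because its log2 FC for the vector had opposite signs in the 2 fractions, -0.60 (SE 0.38) in ACSA-2 and 1.39 (SE 0.50) in CD11b cells, neither of which was called. Every ACSA-2 library of AAV-A2A animals was below the mean of its controls and every CD11b library of AAV-A2A animals above the mean of its own, although the control GFP-303 lay below all 3 ACSA-2 AAV-A2A libraries. The vector effect in ACSA-2 cells less that in CD11b cells was -2.03 (SE 0.67, log2), and this difference was not called by edgeR in the fit of all 12 libraries. It was -1.37 without the 3 CD11b libraries rich in choroid plexus markers, which include both controls with the lowest Lrrc8d. They also include A2A-2347, where Lrrc8d was above the remaining control, GFP-2331.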

How the results depend on the processing

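No paired analysis was possible because the groups share no replicate numbers. For the vector in ACSA-2 cells, by which the family was chosen and where counts of members are no evidence, 2 members were past the thresholds, 1 to 2 without 1 library and 1 in the fit of all 12 libraries. Between the fractions, leaving out 1 library gave 1 to 3 members called in controls (4 with all) and 1 to 2 in AAV-A2A animals (2 with all). In AAV-A2A animals 1 was called with no filter on low counts, with only the 6 libraries compared and without the 3 choroid plexus-rich libraries. Lrrc8c was called between the fractions there once a trend on gene length was removed (log2 FC 0.89), and Lrrc8d lost its call in controls (-1.55). For the difference of the vector effects, where 0 were called, DESeq2 and a filter of 10 counts in every library gave 1 and leaving out 1 library 0 to 2. No member reversed its direction with a call.

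For the lists, DESeq2 called 5 chloride and anion channels (1 with edgeR), 1 large-pore channel and 1 cGAMP gene in ACSA-2 cells, and 2 and 1 genes of the chloride channel and WNK lists in CD11b cells (0 with edgeR). Leaving out 1 ACSA-2 library gave 0 to 1 large-pore channels. Between the fractions in controls, DESeq2 called 7 osmolyte genes (4 with edgeR), and leaving out 1 library gave 3 to 6 genes of the WNK list (7 with all). Shares moved with the length used. With the longest transcript, Lrrc8d was at 9.87% in ACSA-2 controls, 17.7% in ACSA-2 and 73.7% in CD11b AAV-A2A libraries, and Lrrc8b at 17.5% in ACSA-2 AAV-A2A libraries. With the coding sequence, Lrrc8d was at 8.16 and 15.6% in the ACSA-2 groups. With exon bases of no other gene, Lrrc8b was at 40.2 and 13.3% and Lrrc8d at 6.23% in ACSA-2 AAV-A2A libraries. Calls across all genes for the vector in ACSA-2 cells went from 553 with edgeR to 1263 with DESeq2 and 156 in the fit of all 12 libraries (272 to 448 without 1 library), and in CD11b cells from 0 to 455. For the difference of the vector effects they went from 75 to 1695 with DESeq2, 345 with the filter of 10 counts, 10 with DESeq2 size factors and 0 with the length trend removed. The cause was not tested. With 3 libraries a group, a member not called in either fraction is not shown to be unchanged. In CD11b cells, 3 of the 6 libraries were also unlike the others.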
